A study of Zea mays with 24 samples.

Results

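Transcripts of 5 maize genes that carry out the magnesium branch of chlorophyll synthesis were followed through heat stress in 3 cytolines. The genes were fixed as a list of IDs of an older maize annotation. GRMZM2G419806 is oy1 (oil yellow1), the I subunit of the Mg-chelatase, and GRMZM2G323024 is its H subunit. GRMZM2G084958 (pcr1), GRMZM2G073351 (por) and GRMZM2G036455 are protochlorophyllide oxidoreductases. All 5 were among the 107027 gene IDs of the array, with 15 probes in all. Of these, 4 genes and 13 probes passed the filter on low signal, out of 48264 genes and 64523 probes that passed it in the whole data set. The names of oy1, pcr1 and por stand in the RefSeq gene table, whereas the roles of GRMZM2G323024 and GRMZM2G036455 come from the list itself. Each probe is called here by the transcript model in its name (T01, T02 and so on).

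Chlorophyll and heme share their first steps, up to protoporphyrin IX. The Mg-chelatase, a complex of the I, D and H subunits, inserts magnesium into this ring and so commits it to chlorophyll. The H subunit carries the porphyrin, and in Arabidopsis it is also known for its part in signaling from the plastid to the nucleus (GUN5). The I subunit, encoded by oy1 in maize, is an ATPase. Protochlorophyllide oxidoreductase reduces protochlorophyllide to chlorophyllide in a step that needs light, and plants that carry several copies of the gene use them at different stages of greening. All of these enzymes are encoded in the nucleus and work in the chloroplast.

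A cytoline is a line whose nucleus has been moved into the cytoplasm of another line. The nucleus was that of TC243 throughout, in its own cytoplasm or, in cytTC221 and cytT248 (written cytTC248 in the sample labels), together with the plastids and mitochondria of TC221 and T248. Controls were raised for 21 days under a photoperiod of 16 h (26 °C, with nights of 8 h at 20 °C), and heat seedlings were moved after 20 such days to 40 °C for 24 h. Each of the 6 groups had 4 one-colour arrays, hybridized with Cy3-labelled RNA from the leaves and stems of seedlings at the 3-leaf stage. The series text calls the 4 samples of a group biological replicates, but the harvest took 3 seedlings of each line, fewer than the 4 samples of a group, so these may not be separate plants. The p-values measure the spread between these samples.

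Between 36.9% and 43.1% of the spots of an array were well above background, and 0 spots were saturated. Precision is limited by having 4 arrays in a group. The heat treatment was visible in hsp101 and hsp26, chaperone genes induced by heat. Neither was well above background on a control array, and on the heat arrays hsp26 reached 16.02, 15.62 and 15.88 in TC243, cytTC221 and cytT248 (log2 signal). Of the markers of green leaf, pep1 and pdk1 of the mesophyll lay at 16.07 and 15.28 in TC243 control, and me3 and ssu1 of the bundle sheath at 8.92 and 8.27. All 4 markers had probes well above background on the 24 arrays. For ssu1 this was the T02 probe alone, as its T01 probe was so on 0 arrays and was not kept. Of 37 probes of zein genes, which belong to the kernel, 1 passed the filter.

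Heat took the transcripts of the H subunit and of pcr1 down by more than 10-fold in all 3 cytolines, while oy1 and por gave small changes that differed between their probes. At a limma adjusted p below 0.01 (Benjamini-Hochberg over all 48264 genes), 4 of the 4 tested genes were called in TC243, 3 in cytTC221 and 3 in cytT248. In the same comparisons 80.3%, 74.9% and 79.8% of all genes were called, so the counts lie near the background. All 4 calls in TC243 and all 3 in cytT248 were decreases, against 38.3% and 38.1% of all genes called as lower. In cytTC221, 2 genes fell and por rose, against 38.7% of all genes called as lower and 36.2% called as higher. The H subunit and pcr1 were lower in every cytoline, as were 31.4% of all genes. Both were among the 601 most decreased of the 48264 genes in each cytoline. Of the 13 probes, 10 fell and 2 rose in TC243, against 40.6% and 39.9% of all probes. In cytTC221 9 fell and 3 rose, against 40.3% and 35.6%, and in cytT248 10 fell and 3 rose, against 40.6% and 39.5%.

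**Figure D1:**
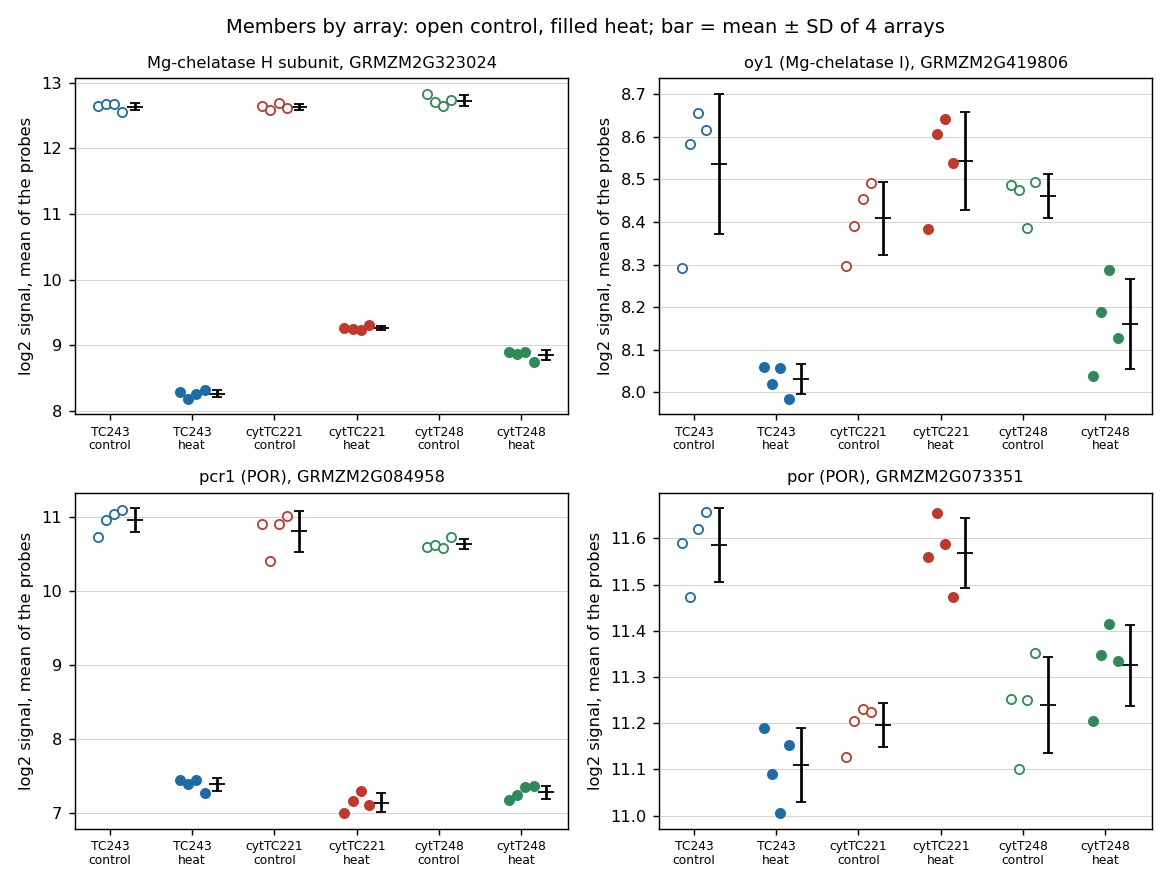
Log2 signal of the 4 tested genes on each of the 24 arrays (mean of the kept probes of the gene, deposited values), by cytoline and treatment, with the mean and SD of 4 arrays beside the points. The heat arrays of the H subunit lie between 8.19 and 9.31 and those of pcr1 between 7.00 and 7.45, far below all control arrays, whereas oy1 and por differ by under 1 unit between any of the groups.

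On the deposited scale the H subunit changed most of the 4 genes in TC243 and cytT248. Its probe read 12.63, 12.68, 12.68 and 12.55 on the 4 control arrays of TC243 and 8.29, 8.19, 8.26 and 8.31 on the heat arrays (log2 signal, replicates 1 to 4). In cytTC221 the control arrays read 12.65, 12.59, 12.69 and 12.61 and the heat arrays 9.26, 9.25, 9.24 and 9.31. In cytT248 they read 12.83, 12.70, 12.64 and 12.73 and 8.90, 8.87, 8.90 and 8.74. Control and heat arrays did not overlap in any cytoline, and the SD of a group was 0.08 or less. In TC243 the transcript fell by 4.37 on the log2 scale, an FR (fold regulation, the fold on the linear scale, negative where heat is lower) of -20.7 (SE 0.05, limma adjusted p = 6.13e-26). The FR was -10.3 in cytTC221 (log2 difference -3.37, SE 0.05, limma adjusted p = 4.27e-24) and -14.6 in cytT248 (log2 difference -3.87, SE 0.05, limma adjusted p = 4.27e-25). Among the 48264 genes this put the H subunit at place 204, 496 and 350 from the most decreased in TC243, cytTC221 and cytT248. RNA of whole shoots does not tell fewer cells that hold a transcript from less of it in each cell. In the same plants pep1, a mesophyll enzyme of C4 photosynthesis, changed by -6.36, -6.74 and -6.28 on the log2 scale and pdk1 by -0.95, -1.05 and -1.06, while me3 rose by 1.40, 1.76 and 1.87 (limma adjusted p = 8.23e-11 or lower for each). The pdk1 mean joins unlike probes, T02 with -2.63, -2.16 and -2.75 and the others with values between -0.84 and -0.31. Its T05 probe in TC243 and T03 probe in cytT248 were not called (limma adjusted p = 0.0639 and 0.0181). For the Rubisco subunit gene ssu1 the changes were -0.30, 0.56 and 0.02 in the same order. The mean log2 level of the 4 leaf markers lay between 11.98 and 12.17 on the control arrays and between 10.37 and 10.76 on the heat arrays, and the part of these shifts in the results was not tested.

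The other Mg-chelatase subunit measured, oy1, did not follow the H subunit. Its T01 and T03 probes passed the filter, and the 2 moved in opposite directions. The T01 probe read 7.38, 7.42, 7.55 and 7.43 on the control and 7.92, 7.77, 7.95 and 7.73 on the heat arrays of TC243. In cytTC221 it read 7.37, 7.37, 7.55 and 7.42 and then 8.24, 8.47, 8.38 and 8.41, and in cytT248 7.37, 7.28, 7.28 and 7.32 and then 8.01, 8.12, 8.15 and 8.04. Every heat array was above every control array of its cytoline. This probe thus rose by 0.40, 0.95 and 0.77 (TC243, cytTC221, cytT248, log2 scale), with limma adjusted p = 3.57e-06, 1.87e-12 and 8.82e-11 over all 64523 probes. It was dim, at 2.76 to 6.31 times the local background, and the size of its rise moved with the processing. In the same order the rise ranged from 0.30 to 0.78, 0.92 to 1.43 and 0.68 to 1.42, called in 17 of 17 alternative settings.

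The T03 probe of oy1 read 9.20, 9.75, 9.76 and 9.80 on the control arrays of TC243 and 8.20, 8.27, 8.17 and 8.24 on the heat arrays. In cytTC221 the values were 9.23, 9.41, 9.36 and 9.57 and 8.52, 8.74, 8.90 and 8.66, and in cytT248 9.61, 9.67, 9.49 and 9.67 and 8.07, 8.26, 8.42 and 8.21. Here every heat array was below every control array of its cytoline, and replicate 1 of TC243 control stood apart below the other 3 arrays of its group. The probe changed by -1.41, -0.69 and -1.37 in TC243, cytTC221 and cytT248 (limma adjusted p = 4.97e-11, 5.45e-06 and 8.42e-11). The mean of the 2 probes therefore hides 2 changes of opposite sign. It came to -0.51 in TC243 (SE 0.07, limma adjusted p = 1.2e-06), 0.13 in cytTC221 (95% interval -0.02 to 0.28, limma adjusted p = 0.0956) and -0.30 in cytT248 (SE 0.07, limma adjusted p = 0.000644). The decrease in cytT248 was not called when arrays were scaled to their 75th percentile, where it was -0.07 with the background-corrected and -0.06 with the processed scanner signal (limma adjusted p = 0.401 and 0.44). With the processed signal the value in cytTC221 was called as a rise of 0.23 (limma adjusted p = 0.00601). Under these scalings the median of all genes in cytT248 was itself 0.48 and 0.31, against 0.07 on the deposited scale. Another probe, T02, was well above background on 0 of 24 arrays. Opposite calls within a gene were not rare on this array, since 15.1%, 15.2% and 15.6% of the 9213 genes with at least 2 kept probes had them in TC243, cytTC221 and cytT248. Which probe stands for the main oy1 transcript was not tested.

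**Figure D2:**
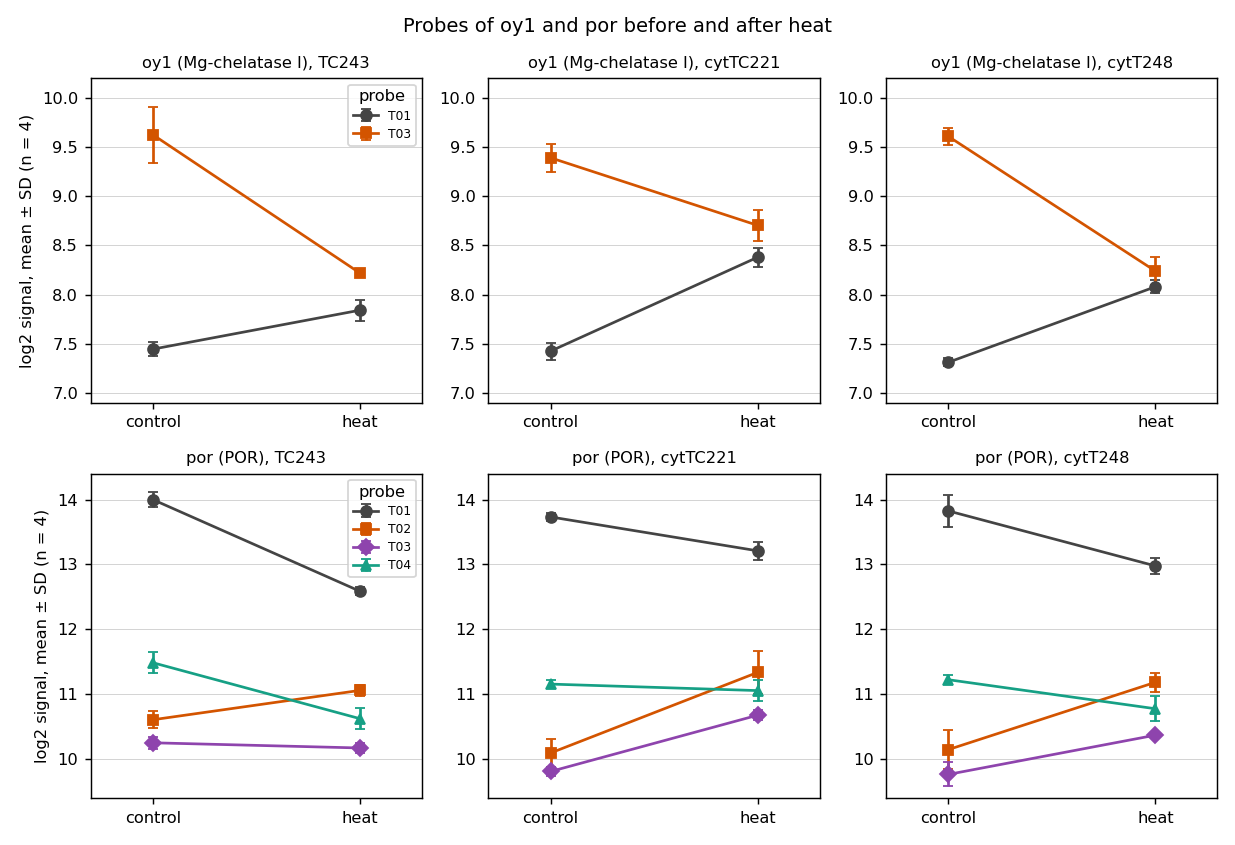
Log2 signal of the kept probes of oy1 (upper row) and por (lower row) in control and heat, by cytoline, as mean ± SD of 4 arrays. The T01 probe of oy1 rises in each cytoline while T03 falls, and in por the T01 probe falls in each while T02 rises.

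Of the protochlorophyllide oxidoreductases, pcr1 fell steeply and on every probe. The mean of its 6 probes read 10.73, 10.96, 11.03 and 11.09 on the control arrays of TC243 and 7.45, 7.39, 7.45 and 7.26 on the heat arrays. In cytTC221 the control arrays read 10.89, 10.40, 10.89 and 11.01 and the heat arrays 7.00, 7.16, 7.30 and 7.11. In cytT248 they read 10.58, 10.62, 10.58 and 10.73 and 7.18, 7.24, 7.35 and 7.36. The heat arrays of all 3 cytolines lay close together, more than 3 units below their controls and without overlap. The FR came to -11.8, -12.6 and -10.2 for TC243, cytTC221 and cytT248 (log2 differences -3.56, -3.66 and -3.35, each with an SE of 0.10, limma adjusted p = 5.36e-19, 3.84e-19 and 1.78e-18). The 6 probes, which all belong to 1 gene and are not independent, gave log2 differences between -3.81 and -3.03. The value nearest 0 came from the T02 probe in cytTC221, where replicate 2 of the control read 8.05 against 11.11 to 11.28 on the other 3 control arrays, while the other 5 pcr1 probes read between 10.68 and 11.04 on that array.

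The size of the pcr1 decrease moved with the choice of signal. On the heat arrays the pcr1 probes were still well above background, but their lowest signal was 1.99 to 2.30 times the local background, and no background had been taken off the deposited values. With the software's processed signal, from which background is subtracted, the fall of pcr1 was 20.9-fold in TC243, 29.4-fold in cytTC221 and 18.0-fold in cytT248. The H subunit, which stayed at 4.56 times the local background or more, moved less, to 26.4-fold, 11.8-fold and 16.2-fold, so that in cytT248 the order of the 2 genes turned. With the median signal after normexp correction pcr1 stayed near the deposited values, at 11.8-fold, 13.4-fold and 9.3-fold with 75th percentile scaling and at 13.3-fold, 13.5-fold and 11.1-fold with quantile scaling. The processed signal differs from the deposited values in signal, background and scaling, and which of these moved pcr1 was not tested. The plot of the members under 5 scalings shows the same values on the log2 scale.

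**Figure D3:**
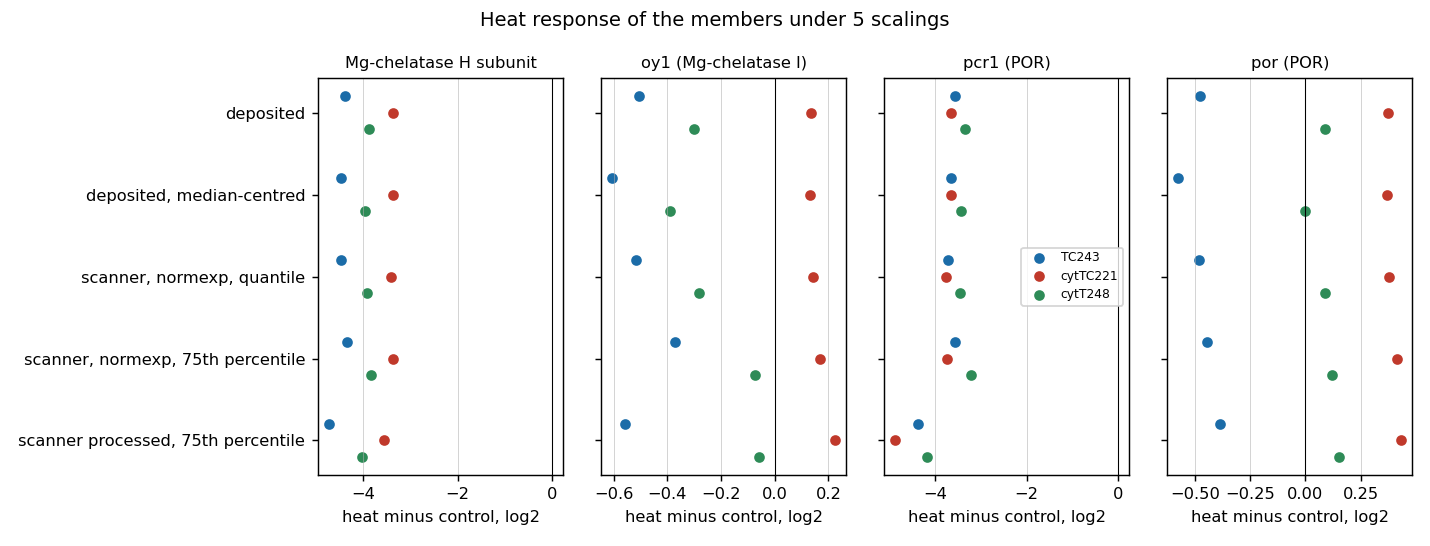
Heat minus control (log2, x axis) of the 4 tested genes in 3 cytolines under 5 ways of scaling the arrays (rows), the deposited values on top. With the processed scanner signal the pcr1 points move to the left, from between -3.66 and -3.35 to between -4.88 and -4.17, and oy1 in cytT248 moves towards 0 under both 75th percentile scalings.

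GRMZM2G036455, the other oxidoreductase listed, was at the limit of detection. Its single probe was well above background on 1 of 24 arrays, replicate 1 of TC243 control, where it read 7.16. The other 3 arrays of that group read between 6.36 and 6.54, and the means of the other 5 groups lay between 6.29 and 6.53. No fold is given for it.

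The gene por lost signal on some probes and gained it on others. Its T01 probe read 14.00, 13.86, 14.00 and 14.14 on the control and 12.57, 12.55, 12.55 and 12.68 on the heat arrays of TC243. In cytTC221 it read 13.82, 13.71, 13.66 and 13.74 and then 13.06, 13.39, 13.17 and 13.22, and in cytT248 13.88, 13.47, 14.01 and 13.94 and then 12.81, 13.10, 12.96 and 13.04. Every heat array was below every control array of its cytoline, and the gap was widest in TC243. The log2 difference of the T01 probe was -1.41 in the nucleus donor TC243, -0.52 in cytTC221 and -0.85 in cytT248 (FR of -2.66, -1.44 and -1.8, limma adjusted p = 3.71e-12, 3.1e-05 and 2.79e-08).

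The T02 probe of por went the other way. It read 10.79, 10.49, 10.53 and 10.61 on the control and 11.15, 11.01, 10.96 and 11.11 on the heat arrays of TC243. In cytTC221 it read 9.78, 10.18, 10.29 and 10.12 and then 11.51, 11.35, 11.62 and 10.86, and in cytT248 10.26, 9.70, 10.22 and 10.40 and then 11.11, 11.06, 11.39 and 11.17. The heat arrays were above the control arrays in each cytoline. The rise amounted to 0.45, 1.24 and 1.04 in TC243, cytTC221 and cytT248 (limma adjusted p = 0.00779, 8.31e-08 and 1.19e-06). In TC243 the rise lay near the threshold. It was called there in 9 of 17 alternative settings, with values from 0.35 to 0.51, and in 17 of 17 in each of the other cytolines. The T04 probe fell by 0.86 in TC243 and fell by 0.45 in cytT248 (limma adjusted p = 4.43e-08 and 0.000292), and was -0.10 in cytTC221 (95% interval -0.31 to 0.11). The T03 probe was -0.08 in TC243 (95% interval -0.23 to 0.07) and rose by 0.87 (cytTC221) and 0.60 (cytT248) elsewhere (limma adjusted p = 1.8e-10 and 7.15e-08). Averaged over the 4 probes, por fell by 0.48 in TC243, rose by 0.37 in cytTC221 and stood at 0.09 in cytT248 (95% interval -0.04 to 0.21, limma adjusted p = 1.84e-07, 7.04e-06 and 0.182). The brightest probe alone, T01, turns the cytTC221 and cytT248 values into decreases. The 3 oxidoreductase genes belong to 1 family, and signal from one on the probes of another cannot be told apart here.

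**Figure D4:**
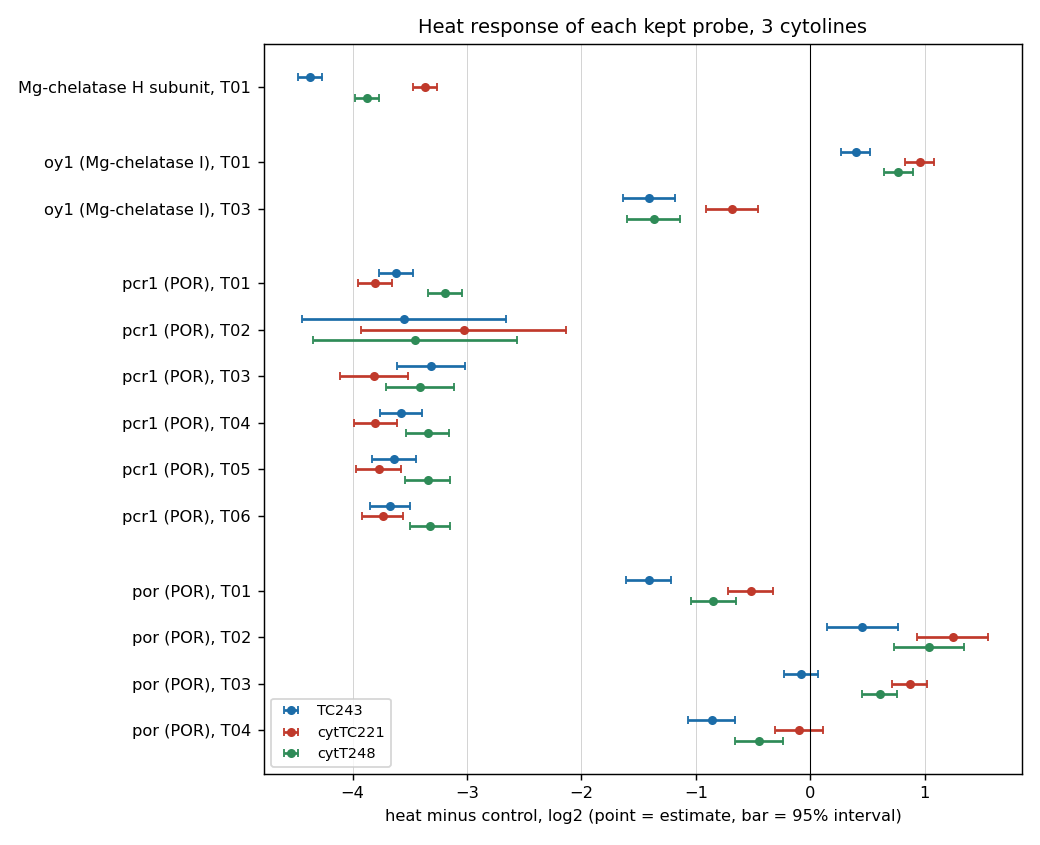
Heat minus control on the log2 scale (x axis) for each of the 13 kept probes (y axis) in TC243, cytTC221 and cytT248, with 95% intervals of the limma fit. The probes of the H subunit and pcr1 lie between -4.37 and -3.03, and those of oy1 and por between -1.41 and 1.24 on either side of 0.

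The comparison of the heat responses between cytolines asks whether the same nucleus responded differently in another cytoplasm. The H subunit, oy1 and por responded differently (limma F-test over the 3 cytolines, adjusted p = 3.91e-10, 6.2e-05 and 1.07e-07), which is 3 of 4 genes, against 43.8% of all genes. The H subunit, measured by its T01 probe alone, lost less in both cytolines with a foreign cytoplasm than in TC243. Its response was higher by 1.00 in cytTC221 (95% interval 0.86 to 1.15, limma adjusted p = 9.53e-11) and by 0.50 in cytT248 (95% interval 0.36 to 0.64, limma adjusted p = 1.58e-05) on the log2 scale. CytTC221 also lay 0.50 above cytT248 (limma adjusted p = 4.31e-06). For oy1 the response in cytTC221 was 0.64 above that in TC243 and 0.43 above that in cytT248 (limma adjusted p = 2.21e-05 and 0.00168), whereas cytT248 and TC243 differed by 0.20 (95% interval -0.01 to 0.42, limma adjusted p = 0.156). With arrays scaled to their 75th percentile the second of these fell to 0.24 with the background-corrected and 0.28 with the processed signal (limma adjusted p = 0.0888 and 0.0274). With the processed signal the response of cytT248 was also called as above that of TC243, by 0.50 (limma adjusted p = 0.00147). For por the differences were 0.85 between cytTC221 and TC243, 0.56 between cytT248 and TC243 and 0.28 between cytTC221 and cytT248 (limma adjusted p = 3.39e-08, 4.8e-05 and 0.00978). The last of these lay at the threshold. It was no longer called in 21 of its 31 alternatives, among them the omission of most single replicates. The 31 include the difference within slides, which had no test. The 3 pairwise differences share groups and are not independent.

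Unlike its direction, the order of the heat response on the deposited scale was the same on every probe of these 3 genes. It was lowest in TC243, higher in cytT248 and highest in cytTC221 on their 7 probes, whether the probe rose or fell. The 3 genes are those that the F-test had called, so the order on their probes is given as a description. Over all 13 probes it was found on 8, the 8th being the T02 probe of pcr1, and 21.2% of all probes on the array showed it. The response was called as higher in cytTC221 than in TC243 on 7 of the 13, against 16.1% of all probes, and as higher in cytT248 than in TC243 on 5, against 4.55%. Between cytTC221 and cytT248 it was called as higher in cytTC221 on 2 of the 13, against 14.8%, and as lower on 3, against 13.5%. These 3 were all probes of pcr1. The 13 probes stand for 4 genes and are not independent.

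The mean of the pcr1 probes did not share this order. The F-test did not call it (limma adjusted p = 0.154), and its response differed by -0.10 between cytTC221 and TC243 (95% interval -0.40 to 0.20), by 0.22 between cytT248 and TC243 (95% interval -0.08 to 0.52) and by -0.31 between cytTC221 and cytT248 (95% interval -0.61 to -0.01). On 5 of 6 probes the fall was largest in cytTC221. The exception was T02, the probe with the low control array, and leaving this probe out, a choice made after seeing the data, brought the F-test past the threshold (limma adjusted p = 0.0024). The log2 differences were then -3.57, -3.79 and -3.32 in TC243, cytTC221 and cytT248, and the difference between cytTC221 and cytT248 was -0.46 (limma adjusted p = 0.000989). Leaving out replicate 2 of cytTC221 control instead gave a difference of -0.45 (limma adjusted p = 0.00296). With all arrays and probes kept, the processed signal also brought it past the threshold, at -0.71 (limma adjusted p = 0.00481). The brightest probe alone, T02, turned the sign, to 0.42, without a call (limma adjusted p = 0.605).

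Levels were compared between cytolines on one scale for all arrays, because the deposited values had been normalized within each cytoline. These values are log2 scanner signals after background correction and quantile normalization over the 24 arrays. Without stress, 2 of the 12 differences (4 genes, 3 pairs) were called, both in por, which lay at 11.59 ± 0.08 in TC243, 11.09 ± 0.05 in cytTC221 and 11.22 ± 0.11 in cytT248 (SD, n = 4). From TC243 it differed by -0.51 (cytTC221) and -0.37 (cytT248) on the log2 scale (limma adjusted p = 1.86e-06 and 0.000137). In the 3 pairs, 12.8%, 10.9% and 10.8% of all genes were called. The H subunit lay at 12.65 ± 0.06, 12.55 ± 0.05 and 12.72 ± 0.08 in TC243, cytTC221 and cytT248, and its differences from TC243 were -0.10 (95% interval -0.20 to 0.01) and 0.08 (95% interval -0.03 to 0.18). For pcr1 the differences from TC243 were -0.26 (95% interval -0.48 to -0.04) in cytTC221 and -0.35 (95% interval -0.56 to -0.13) in cytT248, and for oy1 -0.20 (95% interval -0.36 to -0.04) and -0.08 (95% interval -0.23 to 0.08). Without replicate 1 of TC243 control, 4 differences were called in place of 2, as oy1 in cytTC221 (-0.28) and pcr1 in cytT248 (-0.42) then passed (limma adjusted p = 0.00447 and 0.00985).

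After heat, 6 of the 12 differences were called, all of them higher in a cytoline with a foreign cytoplasm than in TC243, or higher in cytTC221 than in cytT248. Of all genes, 47.7% were called for cytTC221 against TC243, 17.7% for cytT248 against TC243 and 38.4% for cytTC221 against cytT248, and 22%, 6.53% and 17.7% were called as higher. The H subunit took part in 3 of the 6. Its heat arrays read 8.20, 8.11, 8.17 and 8.24 in TC243, 9.13, 9.12, 9.10 and 9.18 in cytTC221 and 8.86, 8.81, 8.85 and 8.70 in cytT248 on this scale. The 3 groups did not overlap, and the order from the lowest was TC243, cytT248 and cytTC221, with 0.62 between TC243 and cytT248 and 0.33 between cytT248 and cytTC221 (limma adjusted p = 5.81e-09 and 1.47e-05). Heated cytTC221 thus held 1.93 times the H subunit transcript of heated TC243 (log2 difference 0.95, SE 0.05, limma adjusted p = 5.21e-13). For oy1 cytTC221 was higher than TC243 by 0.46 and than cytT248 by 0.30 (limma adjusted p = 1.97e-05 and 0.00229). The second of these was 0.18 and not called with normexp correction and 75th percentile scaling (limma adjusted p = 0.065). It was also not called with only the groups compared in the fit (0.30, limma adjusted p = 0.0118). The same held without replicate 3 of heated cytTC221 (0.27, limma adjusted p = 0.0107) or replicate 1 of heated cytT248 (0.26, limma adjusted p = 0.0121). In por cytTC221 was higher than TC243 by 0.35 (limma adjusted p = 3.98e-05). TC243 and cytT248 differed by 0.16 in oy1 (limma adjusted p = 0.131) and by 0.20 in por (95% interval 0.07 to 0.33), neither of them called. For pcr1, heated cytTC221 lay -0.29 from TC243 (95% interval -0.51 to -0.07) and cytT248 -0.08 (95% interval -0.30 to 0.14), neither of them called. Other settings called heated pcr1 as lower in cytTC221 than in TC243. The difference was -0.29 without the T02 probe, -0.44 with normexp correction and 75th percentile scaling and -0.79 with the processed signal (limma adjusted p = 0.00307, 0.00214 and 3.14e-05). From heated cytT248 it was -0.21 (limma adjusted p = 0.109), and -0.44 and -0.61 under the last 2 settings (limma adjusted p = 0.00243 and 0.000668). Heated por in cytT248 was called as higher than in TC243 on the deposited scale, at 0.22 (limma adjusted p = 0.00953), and in cytTC221 as higher than in cytT248, at 0.24 (limma adjusted p = 0.00189).

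The steps on either side of these enzymes were looked up by name in the RefSeq table, which gave 4 gene IDs of earlier steps and 4 of chlorophyll breakdown. Among the earlier steps, 2 of 4 genes fell and 1 rose in each cytoline, near the shares of all genes called as lower (38.3%, 38.7% and 38.1% in TC243, cytTC221 and cytT248) and as higher (41.9%, 36.2% and 41.7%). The gene cpx2, coproporphyrinogen-III oxidase, changed by -1.29, -0.72 and -0.997 on the log2 scale in TC243, cytTC221 and cytT248 (limma adjusted p = 9.12e-12, 1.81e-07 and 8.9e-10). The gene prpo2, a protoporphyrinogen oxidase, changed by -1.07, -0.80 and -1.17 (limma adjusted p = 3.46e-14, 8.74e-12 and 6.85e-15), while the other gene for this step, prpo1, stood at 0.04, -0.05 and -0.10 and was not called. The gene les22, uroporphyrinogen decarboxylase, rose by 0.75, 1.98 and 0.93 (limma adjusted p = 2.02e-07, 8.98e-15 and 5.86e-09), most in cytTC221, where the response was 1.23 above that in TC243 (limma adjusted p = 1.13e-07). None of the earlier genes changed as much as the H subunit or pcr1.

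All 4 gene IDs of chlorophyll breakdown rose in each cytoline, against 41.9%, 36.2% and 41.7% of all genes in TC243, cytTC221 and cytT248. SGR1 and SGR2 are named for STAY-GREEN, which in Arabidopsis takes the magnesium out of chlorophyll a. RefSeq gives the name SGR1 to 2 of the IDs, so these may be parts of 1 gene. GRMZM2G379563 rose by 3.24, 2.86 and 3.47 in TC243, cytTC221 and cytT248 and GRMZM2G103881 by 3.06, 2.84 and 3.27 (limma adjusted p = 9.36e-16 or lower for each). SGR2 rose by 0.51, 0.66 and 0.41 (limma adjusted p = 7.42e-05, 2.66e-06 and 0.000758). The gene lls1, pheophorbide a oxygenase, which opens the porphyrin ring, rose by 1.48, 1.34 and 1.16 (limma adjusted p = 3.43e-15, 2.36e-14 and 3.15e-13). The breakdown genes thus moved against the H subunit and pcr1 in each cytoline.

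**Figure D5:**
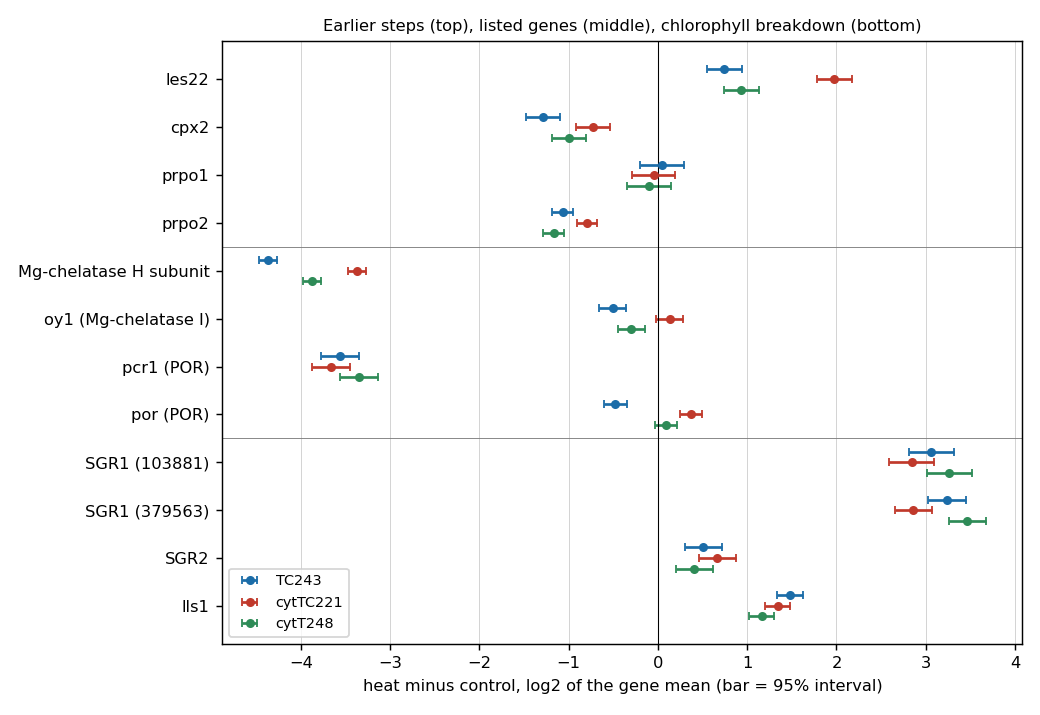
Heat minus control on the log2 scale (gene means, x axis) with 95% intervals for earlier steps, the 4 tested genes and genes of chlorophyll breakdown (y axis) in 3 cytolines. The breakdown genes lie to the right of 0 in each cytoline, up to 3.47, and the H subunit and pcr1 to the left, down to -4.37.

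The genes whose level over the 24 arrays was most like each member were taken from the 5127 kept genes with a name in RefSeq, as a description. The 24 arrays share the 2 treatments, so any gene with a strong heat response can reach a high correlation. Nearest to the H subunit were GRMZM2G086835 (pco083183), CST1 (GRMZM2G153358) and COL5 (GRMZM2G075562), with Pearson's r of 0.998, 0.997 and 0.997. COL5 changed by -2.08, -1.61 and -1.84 in TC243, cytTC221 and cytT248, and GRMZM2G086835 by -5.35, -4.00 and -5.11. Nearest to pcr1 were GRMZM2G145041 (MYBE1), GRMZM2G092749 (TIDP3037) and GRMZM2G081114 (pco087746), at 0.997, 0.996 and 0.996, and MYBE1 changed by -3.94, -4.25 and -4.11. The likeness was weaker for por, with PPCK4 (GRMZM2G049541) at 0.883, LOB15 (GRMZM2G060544) at 0.840 and GRMZM2G587231 at 0.788. For oy1 it was 0.926 for GRMZM2G084928, 0.919 for GRMZM5G878322 and 0.908 for fea3 (GRMZM2G166524). The H subunit and pcr1 themselves correlated at 0.977 over the same arrays.

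Within a cytoline, control and heat arrays lay at odd and even positions of their slides, and the position could not be told apart from the treatment in a single cytoline. The layout of cytT248 was the reverse of that of TC243 and cytTC221, and the H subunit and pcr1 fell under both layouts. Position therefore also enters each difference in heat response between cytT248 and another cytoline, and its part there was not tested. Each cytoline had 2 slides with 1 control and 1 heat array. Within these slides the H subunit changed by -4.36 and -4.35 in TC243, by -3.45 and -3.33 in cytTC221 and by -3.99 and -3.79 in cytT248. For pcr1 the values were -3.77 and -3.28, -3.59 and -3.24, and -3.44 and -3.37 in the same order. With slide as a block in the fit, the H subunit stood at -4.38, -3.35 and -3.86 and pcr1 at -3.56, -3.66 and -3.34, and the calls of the 4 genes after heat were the same as without it. Within slides por stood at -0.47 and -0.40 in TC243, 0.36 and 0.45 in cytTC221 and -0.02 and 0.10 in cytT248, and oy1 at -0.67 and -0.23, 0.19 and 0.22, and -0.44 and -0.37.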

How the data were processed

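RNA of leaves and stems of control and heated maize seedlings was hybridized to 24 one-colour Agilent arrays. The files that the authors deposited are 1 scanner table per array (Feature Extraction 11.5.1.1, linear intensity per spot, with flags) and a table of log2 values. Compared with the scanner files, the deposited log2 values follow the median spot signal, without background correction, quantile-normalized separately within each cytoline. This leaves dim spots compressed. It also gives the control and heat arrays of a cytoline nearly the same distribution. Any overall shift between control and heat is thus removed from the heat responses on this scale. Different cytolines were not brought to the same distribution. The mean absolute quantile difference was 0.0027 between arrays of the same cytoline and 0.025 between arrays of different cytolines. Spots were matched by feature number, and flagged spots were left out (at most 45 on an array, none of the genes described).

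Duplicate spots of a probe were averaged. Probes were kept where some group had all 4 arrays well above background, and a gene is the mean of its kept probes. All 24 arrays were fitted in 1 model with a coefficient per group (limma 3.58.1, lmFit and eBayes, R 4.3.3). A call needs an adjusted p (Benjamini-Hochberg) under 0.01, which the study's methods also used, over all 48264 genes or 64523 probes. Heat responses and their differences between cytolines use the deposited log2 values, as planned. Levels between cytolines were to use them too, but their normalization within cytolines led to a change of plan: they use the scanner median intensity from the deposited files, background-corrected (normexp, offset 50) and quantile-normalized over all arrays. Alternatives covered scaling, the filter on dim probes, the brightest probe, flags, slide, replicate number, array weights and each replicate left out. The fit was tested on simulated data. Of the 15 pairs of groups, same-numbered arrays deviated together most for heated cytTC221 and cytT248 (correlations from 0.13 to 0.27). These shared a slide in each of the 4 pairs, as did TC243 heat and cytTC221 control (0.05 to 0.14) and the controls of TC243 and cytT248 (0.004 to 0.11). Heated TC243 and heated cytTC221 deviated in opposite directions (-0.18 to -0.14). The comparison of heated cytTC221 and cytT248 was also fitted with the number as a block.

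The members and the gene lists were chosen with earlier results of these data known. Genes are named if they are members, belong to the lists of pathway, heat check or marker genes, or are the 3 named genes most like a member. RefSeq genes (assembly Zm-B73-REFERENCE-NAM-5.0) were matched by ID to 14296 of the 48264 kept genes, and 5127 of these had a name other than an ID. Probe names carry the letters Sp or Xhy, whose meaning is not given in the sources used here. The source names of 2 control samples of cytTC221 repeat the number of another replicate, and the titles' numbers were taken.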

Additional observations from a re-analysis of the deposited data

Results flagged for a closer look

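The heat response differed between the 3 cytolines for oy1 (GRMZM2G419806, limma F-test of the interaction, adjusted p = 6.2e-05), for the H subunit (GRMZM2G323024, adjusted p = 3.91e-10) and for por (GRMZM2G073351, adjusted p = 1.07e-07).

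In 7 of 90 combinations of probe and group, 1 array stood apart from the other 3 by Dixon's ratio (the gap to the nearest array over the range of the group), and chance flags about 1 in 20 groups. None of 18 gene means over several probes did so. Replicate 1 of TC243 control was low on the T03 probe of oy1 (9.20 against 9.75 to 9.80, ratio 0.917) and on the T03 probe of pcr1 (10.22 against 11.06 to 11.17, ratio 0.884). Replicate 1 of TC243 heat was high on the T03 probe of pcr1 (7.65 against 7.53 to 7.54, ratio 0.917) and on the T03 probe of por (10.28 against 10.12 to 10.14, ratio 0.875). Replicate 4 of TC243 heat was high on the T01 probe of por (12.68 against 12.55 to 12.57, ratio 0.846). Replicate 2 of cytTC221 control was low on the T02 probe of pcr1 (8.05 against 11.11 to 11.28, ratio 0.947), and without this array the pcr1 response was called as different between cytTC221 and cytT248 (-0.45, limma adjusted p = 0.00296). With the array kept, the processed signal also gave that call (-0.71, limma adjusted p = 0.00481). Replicate 4 of cytT248 control was high on the T05 probe of pcr1 (10.88 against 10.51 to 10.55, ratio 0.892).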

How the results depend on the processing

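Of 1180 alternative values of the 48 differences of the 4 genes, 1115 kept their direction and their side of the threshold, 30 were no longer called, 21 became called and 3 reversed. Another 5 changed sign without a call before or after, among them the pcr1 responses between cytTC221 and TC243 (0.52) and between cytTC221 and cytT248 (0.42) with the brightest probe. The last 6, from within slides and with no test, moved by more than the spread of replicates. The reversed values came with the brightest probe in place of the mean of the probes: oy1 in cytTC221 (-0.69), por in cytTC221 (-0.52) and por in cytT248 (-0.85). The number of called differences between unstressed cytolines was 2, or 1 with the brightest probe, 3 with the processed signal or without the T02 probe of pcr1, and 2 to 4 when single replicates were left out. Same-numbered arrays of different groups correlated from -0.18 to 0.27 (median 0.01), most strongly for heated cytTC221 and cytT248. A replicate block in a fit of these 2 groups, chosen after seeing the data, gave 0.33 for the H subunit and 0.30 for oy1 (adjusted p = 0.00703 and 0.00428) and changed no call of this comparison, nor did slide as a block. Without the block, the fit of these 2 groups alone did not call oy1 (adjusted p = 0.0118). With the replicate number as a block in the fit of all groups, the difference of por between cytTC221 and cytT248 in the heat response was 0.28 and no longer called (adjusted p = 0.0140), and no other call on the 4 genes changed. The joint test over cytolines needs all groups and could not be fitted with the groups of 1 comparison alone, and differences within slides give values without a test. Signal over background limits the pcr1 values after heat, and the probes of oy1 T02 and GRMZM2G036455 were too dim to compare.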
